A study of Homo sapiens with 8 samples.

Results

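The genes described here are 30 transcripts that stood higher with the HIF2a inhibitor PT2399 than with DMSO at both 24 h and 48 h in parental 786-O cells. They were chosen on those values themselves. Each was at least 1.5-fold higher at each time and had a geometric mean intensity of at least 118 over 8 arrays, a level limit that leaves out dim genes. Of 11034 genes at or above that level, out of 18417 with a probe set of their own, 40 met both limits (0.363%). At 24 h alone 8.37% of all genes were 1.5-fold higher, and at 48 h alone 0.607%. A set of 10 of the 40 was put aside by name (MMP7, CLDN2, COL14A1, AKR1B10, AKR1C3, IL18, IFI44L, GDF15, TP53INP1 and CDH6), which left the 30. Since the parental PT2399 differences selected these genes, they are given as a description and carry no test.

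786-O is a clear cell renal carcinoma line that lacks working VHL, the protein that targets HIF alpha subunits for destruction. Cells labelled parental and cells labelled HIF2a null, made with CRISPR in the same line, were grown in DMEM with serum and received DMSO or PT2399 at 2 uM for 24 h or 48 h. The 8 combinations of genotype, treatment and time were measured on 1 array each, so that no condition has a repeat at the same time. Both genotypes share the absence of VHL, and the labels do not say if the null cells are 1 clone or a pool. The growth protocol speaks of null cells for every sample, so genotype was read from the titles. The parental and null cultures belong to separate experiments, and a difference between genotypes cannot be told apart from one between experiments.

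HIF2a is a transcription factor that accumulates when VHL is lost. It pairs with ARNT and raises the transcription of genes for blood vessel growth, growth factor signalling and the cell cycle. PT2399 binds HIF2a and keeps it from pairing with ARNT, so that direct HIF2a targets fall. Clear cell renal carcinoma is thought to arise from the epithelium of the kidney tubule.

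EPAS1, which encodes HIF2a, had intensities of 1277 and 1010.1 in parental DMSO cells at 24 h and 48 h and of 650.5 and 585 in null DMSO cells. EGLN3, a direct HIF2a target, went from 863 to 95.2 with PT2399 at 24 h in parental cells and stood at 110.4 in null DMSO cells. Over all probe sets the median intensity was 133.8 with PT2399 at 24 h in parental cells, against 112.4 to 113.5 on the other parental arrays, although the median over the 11034 genes was 391 there against 382 in DMSO at 24 h. The null 48 h PT2399 array stood apart, with correlations of 0.777 to 0.831 to the other null arrays, which correlated among themselves at 0.939 to 0.983. Null results are therefore given at 24 h and at 48 h separately. The kidney carcinoma markers chosen for this line were present, with 8 of 9 measured at or above an intensity of 118, among them PAX8, PAX2 and VIM. Of 18 endothelial and leukocyte markers, 13 were under 118 on every array. Their summed intensity was 2775 on the parental 24 h PT2399 array, the highest of the 8, and 1698 to 2370 on the others. What part this had in the 24 h differences was not tested.

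In parental cells the 30 genes had log2 differences of 0.59 to 1.34 at 24 h, with a median of 0.82, and of 0.59 to 1.22 at 48 h, with a median of 0.78. Over all 11034 genes the medians were 0.020 and 0.0036. The genes fell into groups by what they encode. A set of 7 encodes surface signals and receptors, 3 encode complement proteins and clusterin, 8 serve transport and metabolism, 8 act in signalling, the cytoskeleton or protein turnover or have a less known role, and 4 are transcription factors. The difference was larger at 24 h in 17 genes and larger at 48 h in 13, and the share over all genes was not taken. This order of the times depends on the scaling. With every array centred on its own median the medians of the 30 were 0.57 at 24 h and 0.79 at 48 h, and with quantile normalization 0.84 and 0.74. Bulk RNA cannot separate more transcript per cell from more cells that carry it.

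**Figure D1:**
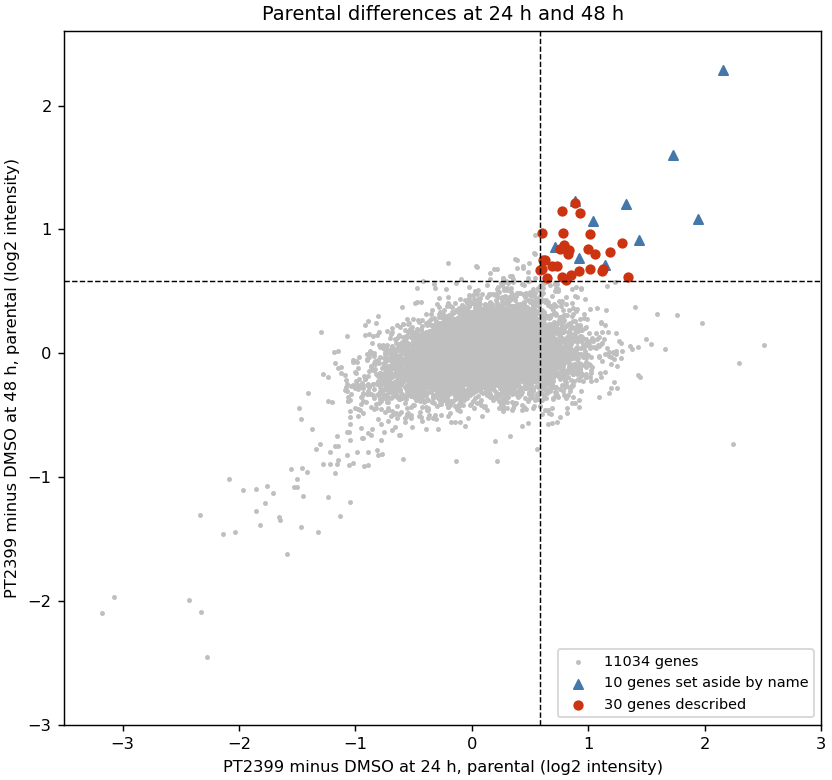
Log2 difference of PT2399 from DMSO in parental cells at 24 h (horizontal axis) and at 48 h (vertical axis), 1 point per gene for 11034 genes, with dashed lines at a 1.5-fold difference. The 30 genes and the 10 put aside by name lie in the upper right corner, which holds 0.363% of all genes.

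Just inside the limits lay PIK3R3 with a smaller difference of 0.60, EVX1 with 0.59 and ACSM3 with 0.59. Just outside lay NFAM1, FILIP1L and USP18 with smaller differences of 0.58, 0.58 and 0.57, so that the edge of the group does not mark a gap in the data. With every array centred on its own median, the median log2 difference of all genes at 24 h moved by -0.25 and 14 of the 30 genes met both limits. All 30 were still above 0 at both times, with the lowest value at 0.34 at 24 h and at 0.61 at 48 h. With quantile normalization 24 of the 30 met the limits, and again all 30 were above 0 at both times. An intensity under 118 occurred in parental DMSO cells at one or both times for 6 genes, CFI, CLU, KLHL24, TCP11L2, EVX1 and ACSM3, whose fold changes start from dim signals.

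The promoters with the most matches to the core motif read by HIF dimers are shown first, because PT2399 acts on such a dimer. The motif was searched as ACGTG or GCGTG on both strands in the 250 bases before the annotated start, in RefSeq sequence of build GRCh38.p14. Promoter sequences were found for 23 of the 30 genes, and ACSM3, C3, CLU, HGD, MSC, SEMA3A and SNAI2 were not matched. JAG1 (chr20:10674000-10674249, minus strand) held 4 matches, TNIK (chr3:171460409-171460658, minus strand) 3, and PLXDC2 (chr10:19816182-19816431, plus strand) and PIK3R3 (chr1:46132630-46132879, minus strand) 2 each. KCNJ16 (chr17:70074975-70075224, plus strand) is shown as a promoter without this core and with an AP-1 motif. Each sequence runs 5′ to 3′ on the gene's strand, with matches in capitals. A HIF core match on the other strand reads CACGT or CACGC.
JAG1: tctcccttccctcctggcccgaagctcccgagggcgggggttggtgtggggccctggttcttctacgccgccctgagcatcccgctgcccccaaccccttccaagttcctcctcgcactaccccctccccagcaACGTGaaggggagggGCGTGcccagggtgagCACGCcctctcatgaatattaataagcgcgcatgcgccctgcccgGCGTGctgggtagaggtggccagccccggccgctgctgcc
TNIK: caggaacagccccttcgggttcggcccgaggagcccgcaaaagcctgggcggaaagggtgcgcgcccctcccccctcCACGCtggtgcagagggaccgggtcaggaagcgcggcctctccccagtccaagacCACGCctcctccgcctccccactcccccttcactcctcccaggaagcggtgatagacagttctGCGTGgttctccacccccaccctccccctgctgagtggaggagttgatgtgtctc
PLXDC2: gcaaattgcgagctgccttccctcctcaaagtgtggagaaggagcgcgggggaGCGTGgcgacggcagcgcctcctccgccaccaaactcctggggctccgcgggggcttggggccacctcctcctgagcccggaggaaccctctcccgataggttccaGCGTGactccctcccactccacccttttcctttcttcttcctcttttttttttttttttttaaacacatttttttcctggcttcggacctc
PIK3R3: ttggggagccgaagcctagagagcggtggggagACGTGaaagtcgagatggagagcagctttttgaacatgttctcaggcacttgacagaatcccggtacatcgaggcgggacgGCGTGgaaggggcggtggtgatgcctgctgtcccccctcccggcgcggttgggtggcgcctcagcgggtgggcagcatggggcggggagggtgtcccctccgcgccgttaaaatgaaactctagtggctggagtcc
KCNJ16: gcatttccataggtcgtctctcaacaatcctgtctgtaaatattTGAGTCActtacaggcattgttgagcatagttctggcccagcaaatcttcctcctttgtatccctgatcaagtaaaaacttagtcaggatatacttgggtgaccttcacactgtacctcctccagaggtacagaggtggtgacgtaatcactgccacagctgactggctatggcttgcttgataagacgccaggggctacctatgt
One or the other form of the HIF core was found in 9 of the 23 promoters (39.1%), namely those of BCL6, FBLIM1, IL1R1, JAG1, KLHL24, PIK3R3, PLXDC2, S1PR1 and TNIK. The same was true of 58.1% of 8874 promoters of genes at or above the level limit and of 43.1% of all 27305 promoters. The E-box CACGTG, which contains ACGTG, was found in 0 of 23, against 9.27% of the 8874 and 6.49% of all. The AP-1 motif TGACTCA, whose other strand reads TGAGTCA, was found in KCNJ16 and KLHL24 (8.70% against 2.43% of the 8874 and 4.16% of all). The antioxidant element TGACNNNGC was found in 5 (21.7% against 12.3% and 11%), CBLB, IL1R1, PPP1R35, S1PR1 and SLC7A7. The forkhead motif GTAAACA was found in TCP11L2 alone (4.35% against 1.79% and 2.98%) and the STAT motif TTCCNGGAA in 0 (against 1.10% and 1.01%). TATAAA was found in LURAP1L and VCAM1, a share of 8.70% that is above the 5.51% of the 8874 promoters and below the 11.1% of all. The median GC content was 58.0%, against 65.2% for the 8874 promoters and 58.0% for all. These counts describe letters in a short window and say nothing of binding.

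Among surface signals and receptors, JAG1, a membrane ligand of Notch receptors, went from 871 to 1609 at 24 h, and at 48 h from 543 to 1262, which is 1.85-fold and 2.32-fold. Both PT2399 arrays were above both DMSO arrays. In null cells JAG1 stood at 2572 with DMSO and 2964 with PT2399 at 24 h, and at 3004 and 2905 at 48 h, so that every null array was above every parental array. SEMA3A, a secreted semaphorin that guides axons and restrains vessel sprouting, went from 246 to 497 at 24 h (2.02-fold) and from 179 to 348 at 48 h (1.95-fold). SEMA3F, a related semaphorin that signals mainly through neuropilin-2, went from 253 to 407 and from 196 to 319. In null cells SEMA3A was 433 with DMSO and 479 with PT2399 at 24 h, and SEMA3F 559.7 and 485, so the drug arrays lay close to their controls at that time. At 48 h SEMA3A was 585 with DMSO and 297 with PT2399, and SEMA3F 404 and 480.1, which sets the semaphorins in opposite directions on the array with the low correlations.

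S1PR1, the receptor for sphingosine 1-phosphate that governs lymphocyte exit from tissues and endothelial barrier function, went from 211 to 437 at 24 h (2.08-fold) and from 267 to 467 at 48 h (1.75-fold). Its null intensities were 75.4 to 101 on all 4 arrays, below the level limit and below every parental array. This order is the reverse of that of JAG1. IL1R1, the signalling receptor of interleukin-1, went from 692 to 1193 and from 430.1 to 845, and in null cells stood at 1255 and 1272 at 24 h and at 1527 and 619 at 48 h. VCAM1, an adhesion molecule for leukocyte integrins, went from 2090.3 to 3232 and from 1408 to 2371, and in null cells was 5967 with DMSO and 6644 with PT2399 at 24 h, and 7686 and 4072 at 48 h. All 4 null values of VCAM1 were above the parental ones, while in IL1R1 this held for all but the 48 h PT2399 value. PLXDC2, a membrane protein with a plexin-like domain, went from 458 to 811 and from 203 to 353, and in null cells from 365 to 356 and from 498 to 227. In PLXDC2 the DMSO level at 24 h exceeded the PT2399 level at 48 h, so the parental treatment groups overlapped when times were pooled.

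The complement group had the largest differences at 24 h, with a median log2 difference of 1.29 at 24 h and 0.82 at 48 h over its 3 genes. C3, the central protein that all complement pathways cleave, went from 669.7 to 1519.6 at 24 h (2.27-fold) and from 368 to 649 at 48 h (1.76-fold). Its null intensities were 1865 and 1884 at 24 h, with DMSO and PT2399, and 1848 and 1396 at 48 h. Both parental DMSO values and the parental 48 h PT2399 value of C3 lay below all 4 null values, and the parental 24 h PT2399 value lay among them. CFI, the protease that inactivates C3b and C4b, went from 185 to 453 and from 91.4 to 169, and in null cells from 122 to 132 and from 180.2 to 59.2. Its parental DMSO value at 24 h exceeded its PT2399 value at 48 h, as did that of C3. CLU, clusterin, a secreted chaperone that also restrains the terminal complement complex, went from 117 to 296 (2.53-fold) and from 90.4 to 138 (1.53-fold). Its 4 null arrays lay between 373 and 441, above all 4 parental arrays.

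Other genes of complement and the acute phase response were mostly above 0 as well. Of 14 genes of a list of complement and acute phase genes that were at or above the level limit, 12 were above 0 at both times in parental cells and 1 was below 0 at both, where 30.7% of all genes were above 0 at both times. The list medians were 0.82 at 24 h and 0.30 at 48 h. Without the 3 members, 9 of 11 were above 0 at both times, with medians of 0.57 and 0.21. With each array centred on its median the counts were 10 of 14 and 7 of 11, against 15.9% of all genes. C1R, a protease of the classical pathway, went from 241 to 311 at 24 h, and at 48 h from 227 to 286. C1RL, a related protease, stood at 0.57 and 0.51 on the log2 scale, LCN2, the iron-binding protein lipocalin 2, at 0.92 and 0.21, and CFB, the protease subunit of the alternative pathway convertase, at 0.84 and 0.16. Those 24 h values come from the array with the higher median, and the genes named here beside the members were chosen after their values were seen. CD59, the membrane inhibitor of the terminal complex, was the gene below 0 at both times, at -0.38 and -0.045. In null cells 6 of the 14 were above 0 at both times, against 26.9% of all genes.

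In the transport and metabolism group the median parental log2 differences were 0.92 at 24 h and 0.76 at 48 h. KCNJ16, the inward rectifier potassium channel Kir5.1 of the kidney tubule, went from 585 to 1110.1 at 24 h (1.90-fold) and from 258 to 565 at 48 h (2.19-fold). SLC7A7, the light chain of the dibasic amino acid exporter of the tubule and gut, went from 362 to 646 and from 196 to 349.8. SLC16A4, a member of the monocarboxylate transporter family, went from 275 to 547 and from 187 to 335. In KCNJ16 and SLC7A7 the 48 h PT2399 value lay below the 24 h DMSO value, so the rise is seen only against the control of the same time. In null cells KCNJ16 went from 565 to 693 at 24 h, and at 48 h from 836 to 404. SLC7A7 went from 200.3 to 232 and from 193 to 442, and SLC16A4 from 295 to 344 and from 278 to 485. The null PT2399 arrays of these transporters were above the DMSO array of the same time, except for KCNJ16 at 48 h.

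HGD, homogentisate dioxygenase of tyrosine breakdown, went from 268 to 468 at 24 h, and at 48 h from 185 to 331, and its pair of probe sets carried identical values. Its null intensities were 211 and 249 at 24 h, with DMSO and PT2399, and 269 and 389 at 48 h. ASS1, the urea cycle enzyme that makes argininosuccinate and allows cells to form arginine, went from 344 to 743 (2.16-fold) and from 271 to 429 (1.58-fold). ASS1 had the largest null difference at 24 h among the 30, from 861 to 1237 (log2 0.52), and went from 1174 to 1456 at 48 h. The PT2399 arrays of ASS1 were thus above the DMSO arrays in both genotypes. ALDH1A1, a retinaldehyde dehydrogenase, went from 1459.6 to 2756 and from 931 to 1475 in parental cells, and in null cells from 1111 to 1218 and from 1529.7 to 1122. MAN2C1, a cytosolic alpha-mannosidase, went from 257 to 518 and from 224 to 359.7, and in null cells from 249 to 231 and from 133 to 243. ACSM3, a mitochondrial medium-chain acyl-CoA synthetase, went from 229 to 344 and from 115 to 183, and its null values lay between 190.4 and 246. Of these, HGD, ALDH1A1 and ACSM3 had null values within the span of the parental ones.

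TNIK, a kinase that works with TCF4 in Wnt signalling, went from 704 to 1218 at 24 h (1.73-fold) and from 594 to 1091 at 48 h (1.83-fold). CBLB, an E3 ubiquitin ligase that dampens receptor signalling, went from 314 to 521 and from 287 to 467, and PIK3R3, a regulatory subunit of PI 3-kinase, from 188 to 285 and from 152 to 243. In TNIK, CBLB and PIK3R3 both PT2399 arrays were above both DMSO arrays, and the fold changes at the 2 times were close. In null cells TNIK was 711 and 694 at 24 h, with DMSO and PT2399, and 835 and 548 at 48 h. CBLB was 327 and 368 at 24 h and 396 and 158 at 48 h, while PIK3R3 stayed between 120.0 and 155. Both TNIK and CBLB had their lowest null value on the 48 h PT2399 array. PPP1R35, a centriole protein, had the larger difference at 48 h, from 314 to 536 at 24 h (1.71-fold) and from 380.4 to 845 at 48 h (2.22-fold). Its null intensities were 967 to 1182 on all 4 arrays.

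KLHL24, a substrate adaptor of a cullin ubiquitin ligase, went from 161 to 289.8 and from 82.5 to 128, and its null values lay between 165 and 269. FBLIM1, an adaptor at actin and cell-matrix contacts, went from 210.2 to 321 and from 137 to 231. LURAP1L went from 206 to 313 and from 127 to 249, and TCP11L2 from 131 to 224 and from 74.6 to 114. In null cells TCP11L2 stood at 279 and 304 at 24 h, with DMSO and PT2399, and at 362 and 117 at 48 h. In LURAP1L the null intensities were 715 to 1084 against at most 313 in parental cells, and in FBLIM1 they were 89.0 to 145 against at least 137. FBLIM1 and LURAP1L were named here after their values were seen.

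The 4 transcription factors were BCL6, SNAI2, MSC and EVX1. BCL6, a zinc finger repressor that also responds to FOXO factors when growth factor signalling drops, went from 223 to 377 at 24 h, and at 48 h from 142 to 254. SNAI2, the mesenchymal repressor Slug, went from 1104 to 1722 (1.56-fold) and from 1401 to 2132 (1.52-fold). MSC, the basic helix-loop-helix repressor musculin, went from 449.8 to 979.7 and from 467 to 749, and EVX1, a homeobox factor, from 133 to 231 and from 101 to 153. In each of the 4 both parental PT2399 arrays exceeded both parental DMSO arrays. In null cells BCL6 was 451 and 401 at 24 h, with DMSO and PT2399, and 435 and 237 at 48 h. SNAI2 was 2062 and 2331 at 24 h and 3246 and 1104 at 48 h, and MSC 1235 and 1549 at 24 h and 1391 and 1218 at 48 h. MSC alone of the 4 was above its parental values on all 4 null arrays.

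**Figure D2:**
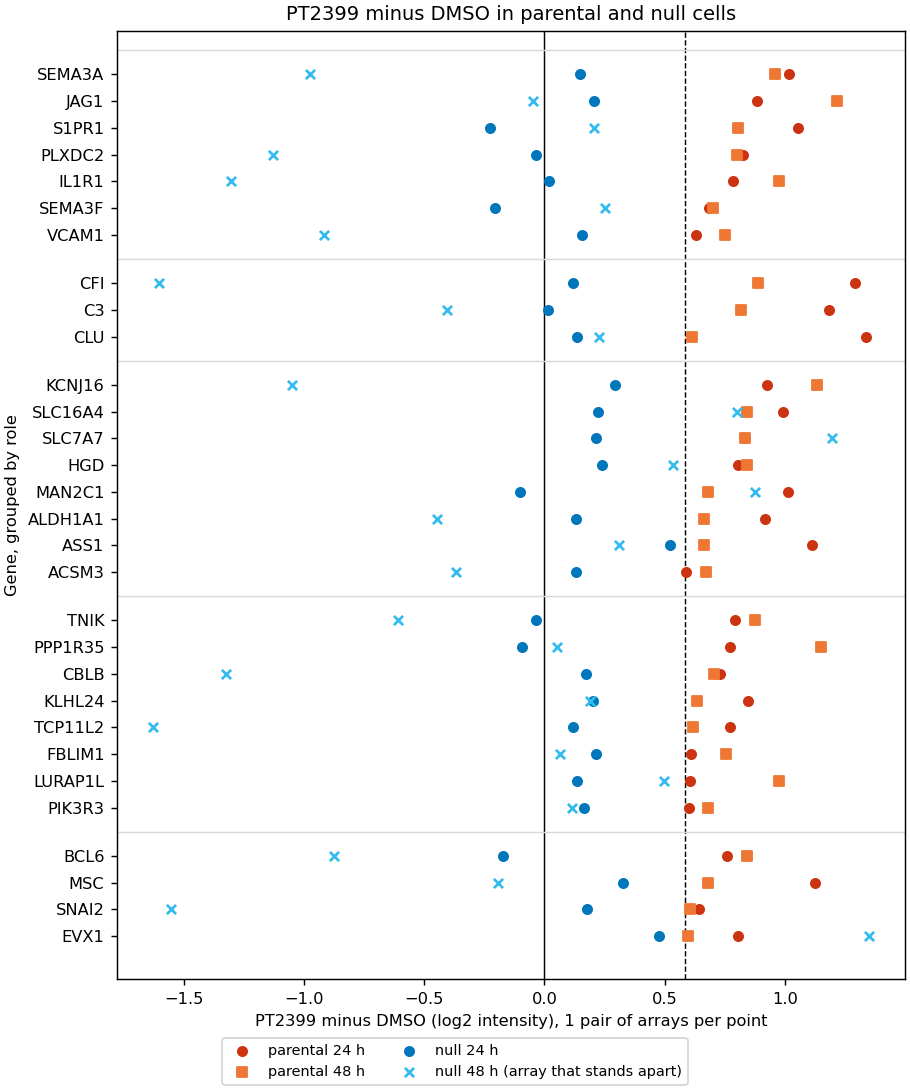
Log2 difference of PT2399 from DMSO for each of the 30 genes, 1 pair of arrays per point, in parental cells at 24 h (red circles) and 48 h (orange squares) and in null cells at 24 h (blue circles) and 48 h (crosses, resting on the array with low correlations). Parental points lie right of the dashed 1.5-fold line by the choice of the genes, and null 24 h points lie between -0.23 and 0.52.

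The null cells give the same contrast in samples that did not enter the choice by difference, although they entered the level limit. At 24 h all 30 genes differed by less than 1.5-fold, from -0.23 for S1PR1 to 0.52 for ASS1 on the log2 scale. The median was 0.14 against 0.035 over all genes, and 23 of 30 were above 0 against 56.8% of all genes. At least 1.5-fold higher were 0 of 30, against 0.798% of all genes, and at least 1.5-fold lower 0, against 1.29%. Few of all genes passed 1.5-fold at that time, so these counts do not set the 30 apart. The 48 h values rest on the array with the low correlations. There 14 of 30 were above 0, against 50.6%, 4 at least 1.5-fold higher, against 23.3%, and 11 at least 1.5-fold lower, against 27.7%. The 4 were EVX1, SLC7A7, MAN2C1 and SLC16A4, and the lowest were TCP11L2 at -1.63 and CFI at -1.61. The median at 48 h was -0.12, against 0.012 over all genes.

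In null cells 0 of the 30 genes were 1.5-fold higher at each of the times and 0 were 1.5-fold lower, where 0.172% of all genes met the first condition and 0.526% the second. Above 0 at both times were 10 of 30, against 26.9%, and below 0 at both times 3, against 19.5%. Limma on the 8 arrays, with the 24 h and 48 h pairs as repeats, called 0 of the 30 genes and 0% of all genes in null cells after Benjamini-Hochberg adjustment (lowest adjusted p = 0.607 over all genes). At an unadjusted p under 0.05 there was 1 of the 30, EVX1, against 479 of all genes (4.34%). The limma effect of EVX1 was 0.91 (SE 0.29, adjusted p = 0.607), higher at both times, from 100.3 to 139 at 24 h, and at 48 h from 82.2 to 209. SLC7A7 followed with a limma effect of 0.70 (SE 0.30, adjusted p = 0.607), higher at both times, and ASS1 stood at 0.42 (SE 0.25). The standard errors ran from 0.23 to 0.43, so the fit does not show that a null effect was absent. These errors pool the spread of the parental arrays, whose values chose the genes. A fit that leaves out a null pair keeps only 1 null array per treatment. Its errors then come from the parental arrays alone, and no spread between null arrays enters. The calls of such a fit therefore cannot decide if a null effect is present, and they are given as a description only. Without the null 24 h pair, when the effect rests on the 48 h array with the low correlations, limma called 15 of the 30, with 11 lower and 4 higher, against 46.6% of all genes. Without the null 48 h pair it called 0 of the 30 and 0% of all genes, with 332 genes and 0 of the 30 at an unadjusted p under 0.05.

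**Figure D3:**
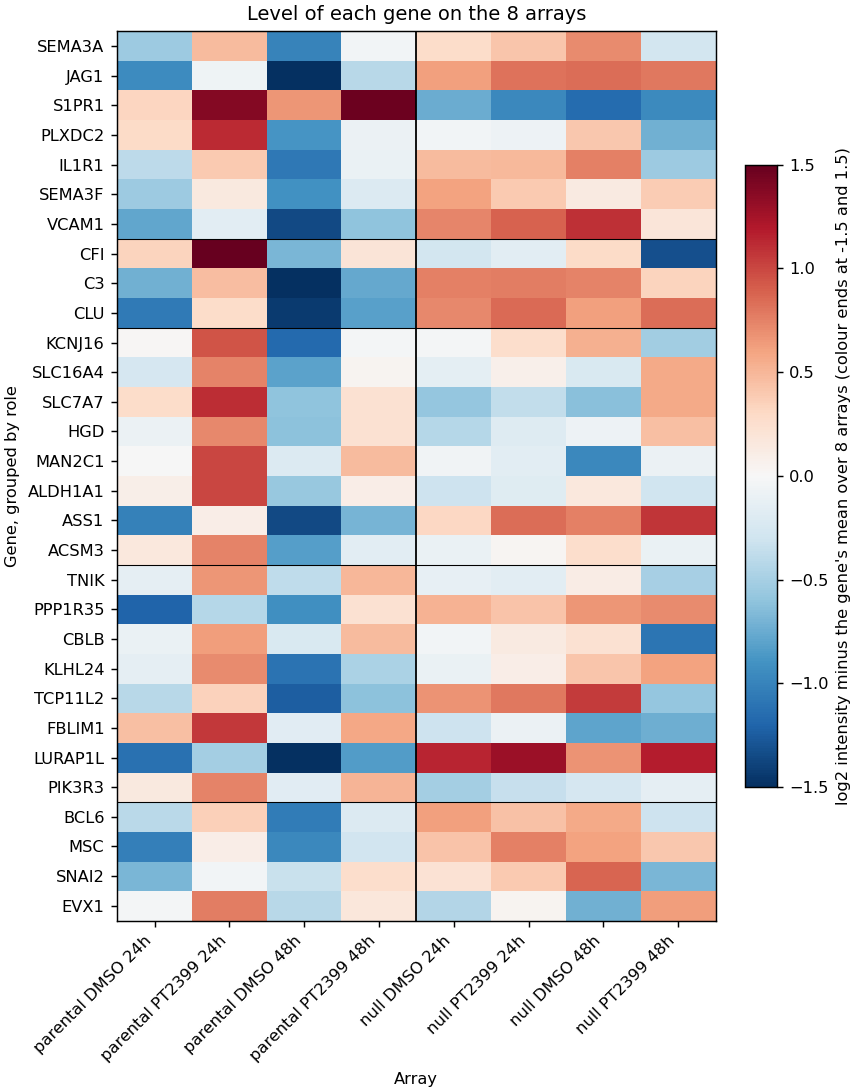
Heat map of the 30 genes (rows) on the 8 arrays (columns), coloured by log2 intensity minus the gene's mean over the arrays, with colours ending at -1.5 and 1.5. Parental PT2399 columns are redder than the DMSO column of the same time, the parental 48 h DMSO column is bluer than the 24 h one in 26 genes, and the null columns are red for JAG1, C3, CLU, VCAM1 and LURAP1L and blue for S1PR1.

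Levels in untreated null cells were set beside those of parental cells, with no test, because the experiments were separate and the rule itself favours genes that are low on the parental DMSO arrays. In null DMSO cells 18 of the 30 genes were above parental DMSO at both times, where 21.8% of all genes were, and in these 18 both null DMSO arrays were above both parental ones (19.6% of all genes). At least 1.5-fold higher at both times were 14, against 5.81%, and at least 1.5-fold lower 2, against 11.6%. After centring of each array the 18 became 14. LURAP1L was 4.79-fold higher in null DMSO cells at 24 h and 5.63-fold at 48 h, JAG1 2.95-fold and 5.53-fold, VCAM1 2.85-fold and 5.46-fold, and C3 2.78-fold and 5.01-fold. CLU was 3.42-fold and 4.13-fold higher, ASS1 2.51-fold and 4.33-fold, and MSC 2.75-fold and 2.98-fold.

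Null DMSO exceeded even parental PT2399 at both times in 13 of the 30, against 24.5% of all genes, and lay below it at both times in 10, against 50.1%. Every null array, treated or not, was above every parental array in JAG1, PPP1R35, MSC, ASS1, VCAM1, CLU and LURAP1L. The reverse held for S1PR1. The share of all genes with either order was not taken, so these orders describe single genes only. The genes that were lower in null than in parental DMSO cells by at least 1.5-fold at both times were S1PR1, at 0.48 and 0.28 of the parental level, and FBLIM1, at 0.59 and 0.65. SLC7A7, PIK3R3, EVX1 and MAN2C1 were also below the parental DMSO level at both times. KCNJ16, CFI, HGD, PLXDC2, ALDH1A1 and ACSM3 were below it at 24 h and above it at 48 h.

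**Figure D4:**
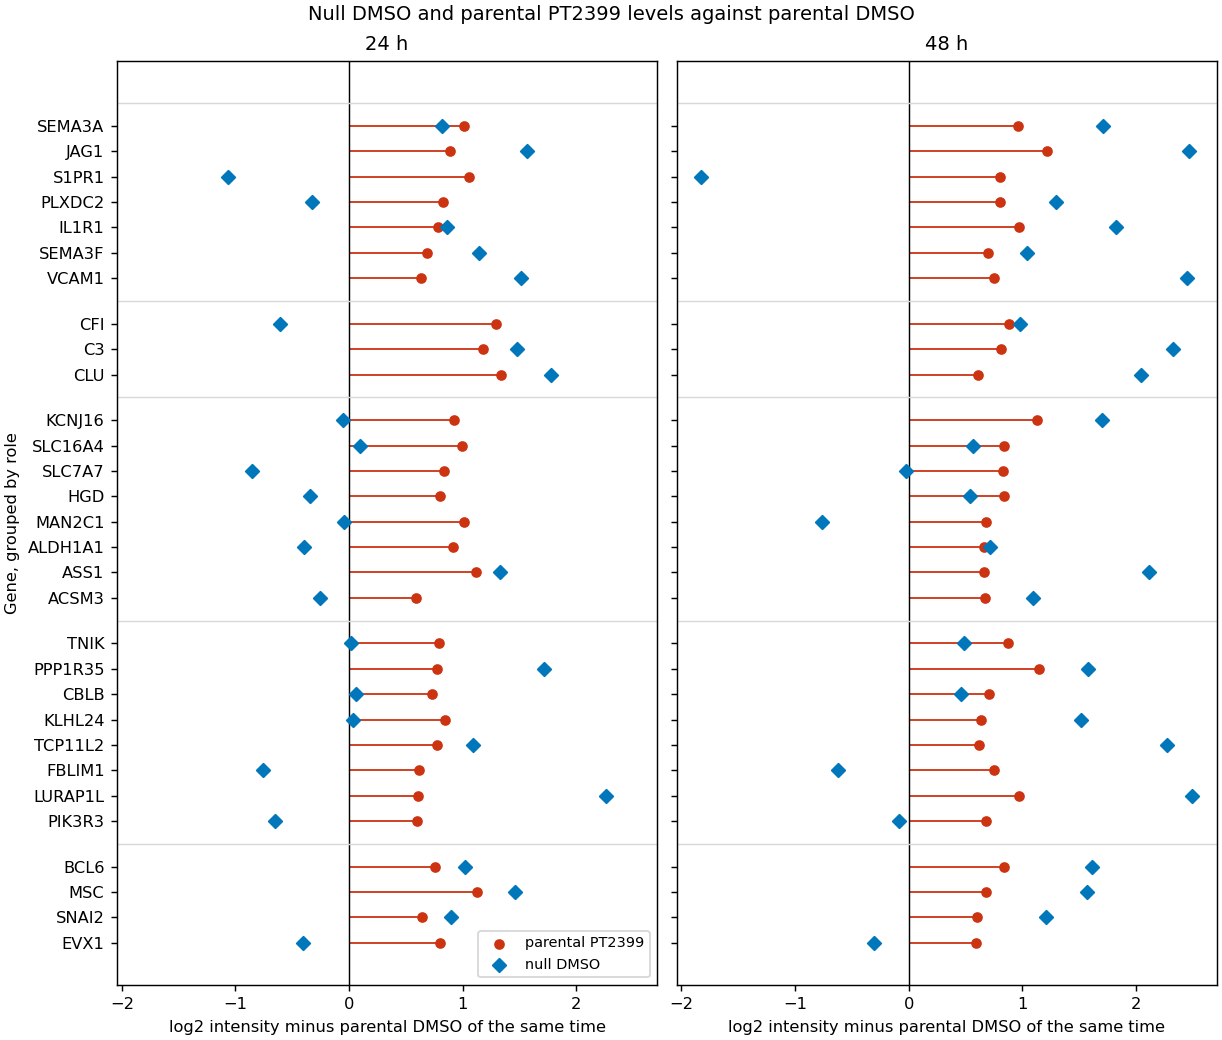
Log2 intensity relative to parental DMSO of the same time, at 24 h (left) and 48 h (right), for parental PT2399 (red circles) and null DMSO (blue diamonds), 1 array per point. Null DMSO lies right of 0 at both times for 18 genes and far left for S1PR1, at -1.07 and -1.82.

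Most of the 30 genes were also lower at 48 h than at 24 h in untreated parental cells. This was so for 26 of 30 in DMSO, against 51.0% of all genes, and by at least 1.5-fold for 14, against 0.933%. Higher by that size were 0, against 0.589%. In the parental PT2399 arrays 27 of 30 were lower at 48 h, against 52.0%, and 13 by at least 1.5-fold, against 7.70%, while PPP1R35 was higher by that size, as were 2.67% of all genes. The choice of genes favours both falls, since a low 48 h DMSO value and a high 24 h PT2399 value help a gene to meet the limits, and no test was made. KCNJ16 was the lowest in DMSO at -1.18, followed by PLXDC2 at -1.18, CFI at -1.02 and ACSM3 at -0.99, and C3 was at -0.86. The genes higher at 48 h in parental DMSO cells were S1PR1, SNAI2, PPP1R35 and MSC.

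Null DMSO cells showed another order over time. There 11 of the 30 were lower at 48 h, against 47.2% of all genes, and 1 by at least 1.5-fold, MAN2C1 at -0.91, against 12.3%. SNAI2 was higher by that size, at 0.65, as were 10.1%. In null PT2399 cells 20 were lower at 48 h, against 55.4%, with 11 at least 1.5-fold lower, against 24.5%, and 3 higher, against 15.8%. A fall in parental DMSO and a rise in null DMSO between the times occurred in 16 of the 30, against 32.3% of all genes. The parental part of this count is favoured by the choice of genes, as 26 of 30 fell in parental DMSO against 51.0%. The count is therefore not a measure of a contrast between genotypes. KCNJ16 went from 585 to 258 in parental DMSO cells and from 565 to 836 in null DMSO cells, and CFI from 185 to 91.4 and from 122 to 180.2. In 8 of the 30 genes the parental PT2399 level at 48 h was below the parental DMSO level at 24 h. The share of all genes with that order was not taken, so these 8 are described only. In 22 both parental PT2399 arrays were above both parental DMSO arrays, against 19.1% of all genes. The choice of genes used these same arrays and favours that order, so the count is a description only.

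**Figure D5:**
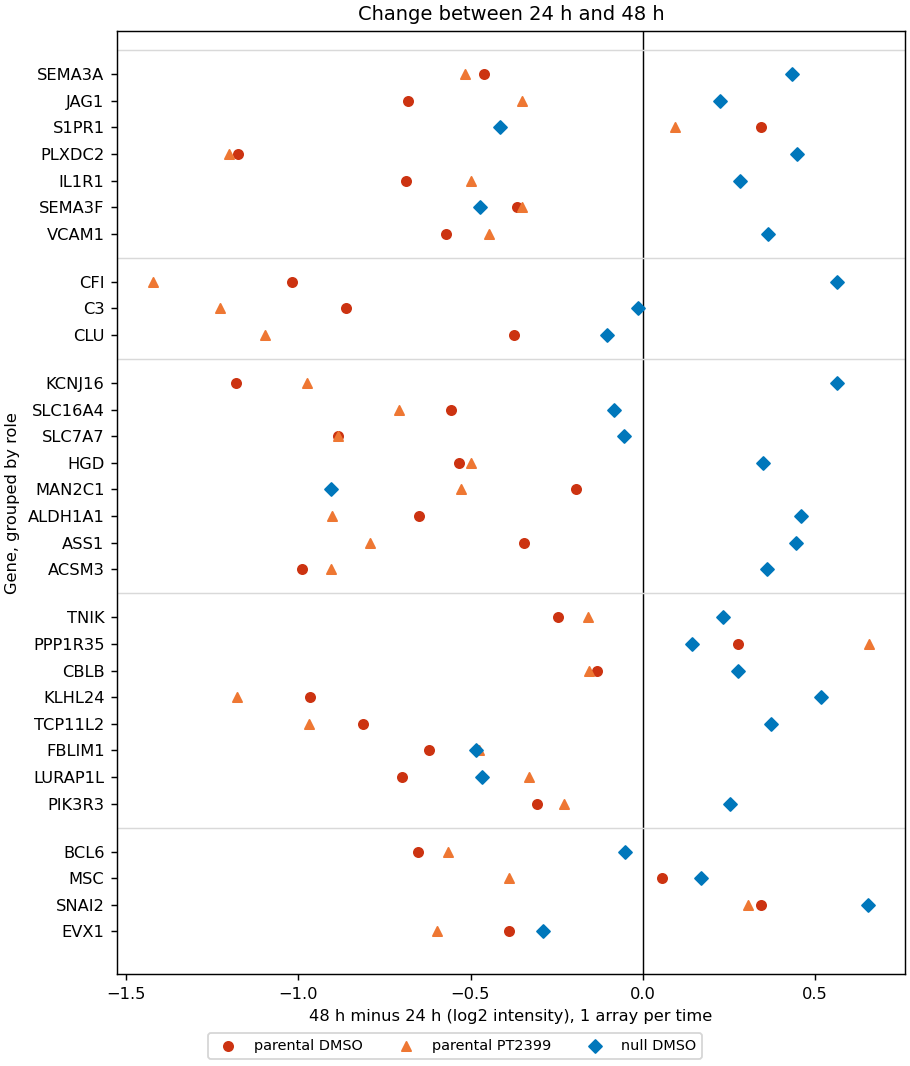
Log2 intensity at 48 h minus that at 24 h for the 30 genes in parental DMSO (red circles), parental PT2399 (triangles) and null DMSO (diamonds), 1 array per time. Parental points lie left of 0 for 26 genes in DMSO and 27 in PT2399, while null DMSO points lie left of 0 for 11.

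Gene lists that cover the themes of the 30 genes were chosen with earlier results of these data known. They are given as counts of genes at least 1.5-fold changed at both times in parental cells, where 0.363% of all genes were higher by that size. The higher genes of the complement, growth factor withdrawal, matrix and redox lists are members, so the rule itself fixed those counts. The complement list held 3, as above. The list of genes raised on growth factor withdrawal held 1 of 23 higher (BCL6) and 1 lower, with medians of 0.33 at 24 h and 0.023 at 48 h. Without BCL6 the medians were 0.32 and 0.0014. The matrix and adhesion list held 1 of 37 higher (VCAM1) and 1 lower, with medians of 0.15 and 0.0071, or 0.15 and 0.0048 without VCAM1. The list of redox and xenobiotic enzymes other than aldo-keto reductases held 1 of 34 (ALDH1A1), with medians of 0.18 and 0.17. In it 19 were above 0 at both times, against 30.7% of all genes, and 18 of 33 without ALDH1A1. Of 37 measured proximal tubule genes only 11 were at or above the level limit, and the dimmer ones were not counted. Of the 11, 0 were past the 1.5-fold limit, with medians of 0.31 and 0.17. Above 0 at both times were 9 and below 0 were 0, against 30.7% and 27.1% of all genes. The growth arrest (22 genes), lysosome and autophagy (37), TGF-beta and BMP (23), Wnt (21), receptor tyrosine kinase (15) and remaining interferon (36) lists held 0 higher. The Wnt and receptor tyrosine kinase lists share 1 gene that was lower past the limit, and the other 4 held 0 lower. Centring of each array turned the 24 h medians of the matrix, redox, lysosome, interferon, receptor tyrosine kinase and TGF-beta lists below 0, with redox at -0.070 and 7 of 34 (20.6%) above 0 at both times, near the 15.9% of all genes. It left the proximal tubule list at 7 of 11 above 0 at both times (63.6%), with a 24 h median of 0.064. In the list of HIF2a-linked genes 10 of 16 were lower past the limit and 0 higher. The share of all genes lower past the limit at both times was not taken, so the counts of lower genes describe the lists only.

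Partner genes of single members, listed after the members were known, are read against all genes, of which 30.7% were above 0 at both times and 27.1% below. Of 13 Notch pathway genes above the level limit other than JAG1, 6 were above 0 at both times and 3 below, with medians of 0.16 at 24 h and -0.038 at 48 h. Class 3 semaphorins and their receptors other than the members had 2 of 6 above 0 and 3 below. Genes of sphingosine 1-phosphate other than S1PR1 had 2 of 7 above and 1 below, interleukin-1 genes 3 of 7 above and 3 below, and PI 3-kinase subunits 3 of 8 above and 2 below. All 5 retinoid genes above the level limit were above 0 at both times, with medians of 0.34 and 0.24 (3 of 5 after centring), whereas arginine and urea genes other than ASS1 had 1 of 7 above and 3 below. The remaining sets were tyrosine breakdown with 1 of 2 above, inward rectifiers with 1 of 2, monocarboxylate transporters with 2 of 3 and mesenchymal repressors with 2 of 5. In these 11 sets no partner was 1.5-fold higher at both times, and 1 arginine and urea gene was 1.5-fold lower. After centring, when 15.9% of all genes were above 0 at both times, 2 of the 13 Notch genes (15.4%) were, and the 24 h medians were below 0 in all sets but the retinoid genes and the inward rectifiers.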

How the data were processed

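Total RNA from 8 cultures of 786-O cells was labelled from 100 ng with an Affymetrix whole-transcript kit, per the labels' protocols. The values deposited by the authors are linear probe set intensities, 33252 per array, with background correction, summarisation and scaling not given in the sources used here. Log2 of the intensities was taken. Genes came from the platform annotation, updated by Entrez identifier (19429 of 19460 single-gene probe sets matched), and 1754 probe sets with several genes and 12038 unnamed ones were left out. A gene's probe set with the highest mean was used. The null effect of PT2399 was fitted with limma 3.58.1 in R 4.3.3, with a level, a time and a PT2399 term for each genotype (2 residual degrees of freedom), adjusted over 11034 genes at a threshold of 0.05; its p-values measure the spread between times. The fit was tested on simulated data with the same noise on every array, a setting without an array that stands apart like the null 48 h PT2399 array. The members, lists and rules were chosen with earlier results of these data known, and partner sets after the members were seen. Every member could be named; array values were planned for the 24 members with the largest smaller difference, listed members, the 5 highest and 5 lowest in null cells, edge genes and references. Promoters are RefSeq, GRCh38.p14. The number of arrays limits the precision.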

Additional observations from a re-analysis of the deposited data

Results flagged for a closer look

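PLXDC2, TNIK and BCL6 went up at both times with PT2399 in parental cells, by the choice of the genes. In null cells their differences were below 0 at both times, though near 0 at 24 h for PLXDC2 and TNIK. This held for 3 of the 30, against 19.5% of all genes, so it was not more common among the 30. The mean null differences were -0.58 for PLXDC2 (-0.033 at 24 h and -1.13 at 48 h), -0.32 for TNIK (-0.035 and -0.61) and -0.52 for BCL6 (-0.17 and -0.88). The 48 h values rest on the array with low correlations, and the difference between the genotypes was not tested, because the parental contrast chose the genes.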

How the results depend on the processing

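The number of genes meeting the rule was 14 with each array centred on its median, 71 with no level limit and 10 with a difference of at least 0.8, against 30 as described, and 22 to 30 under the 6 other settings. Settings on further probe sets could not remove a gene, since 29 of the 30 have 1 probe set and those of HGD are identical. The limit at percentile 40 kept 11050 genes, nearly the 11034 described. For the limma test in null cells, 0 of the 30 genes were called as described and under all alternatives except the fit without the null 24 h pair, which called 15 of them and 5137 genes in all. Over all genes 14 were called with the null arrays alone and also without either parental pair (14 and 14), when the null arrays alone set the spread. In the fits without a null pair the parental arrays alone set the spread, so the calls of those fits do not test the null effect. The median null differences stayed between 0.14 and 0.18 at 24 h and between -0.30 and -0.062 at 48 h. The numbers of members above parental DMSO in null DMSO were 18, 14 after centring and 18 after quantile normalization, and those lower at 48 h in parental DMSO 26 in each. The limma fit pairs DMSO and PT2399 arrays of a time through its time term, and with 1 array per group no other pairing could be tried. The level limit at percentile 40 and the scaling alternatives for DMSO levels and times were chosen after seeing the data, as were those for the gene lists. With 1 array per condition, no fold change has a repeat at the same time.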
